A study of Homo sapiens with 6 samples.

Results

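The genes examined here belong to the epithelial-mesenchymal transition (EMT), and they were compared between parental PC9 cells and the persister (PS) cells derived from them. They were taken by symbol from the deposited gene table, where all 10 were found among 36459 gene symbols. They are the transcription factors ZEB1, ZEB2, SNAI1, SNAI2 and TWIST1, the epithelial markers CDH1, CDH3 and EPCAM, and the mesenchymal markers CDH2 and VIM. PC9 is an EGFR-mutant human non-small cell lung cancer line. The parental group held 3 libraries of PC9 cells cultured without the drug, and the PS group held 3 libraries of PC9 cells kept in 15 µM erlotinib, which inhibits the EGFR kinase, over 6 days. All samples came from this 1 cell line, so neither group stands for other tumours. The study describes the PS libraries as pools of separately cultured dishes and names no pooling for PC9. The presence of erlotinib and the persister state cannot be told apart in this design. In RNA from whole cultures, a lower level in every cell and a smaller share of cells with the transcript also cannot be told apart.

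In EMT, epithelial cells loosen their junctions and take on a migratory, fibroblast-like form. E-cadherin, the product of CDH1, holds neighbouring epithelial cells together through catenins, and the ZEB, SNAIL and TWIST factors are known to repress it by binding E-box sequences in its promoter. N-cadherin (CDH2) and vimentin (VIM) are the textbook mesenchymal counterparts, and many carcinoma cells are known to hold intermediate states in which markers of both kinds are present.

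Total estimated gene counts were between 29476725 and 34893782 per library. Pairwise chi-square values per degree of freedom were 5.43 to 21.1 within PC9, highest between replicates 1 and 2, and 3.50 to 5.31 within PS. These were above the sampling noise, and each library was kept as a replicate. Levels are given as CPM, the counts of a gene relative to the total of its library, after TMM normalization, which scales the libraries to one another. The 14626 genes past an expression filter were compared with the edgeR quasi-likelihood test, and a gene was called changed at a Benjamini-Hochberg adjusted p under 0.01 over all of them. All 10 EMT genes passed the filter.

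In PS cells 4 of the 10 EMT genes rose and 4 fell, and 2 did not pass the test. CDH2, SNAI2, ZEB2 and CDH1 were higher, and SNAI1, VIM, CDH3 and EPCAM were lower. The direction did not follow the role of the genes, since each class of marker and the transcription factors held genes that rose and genes that fell. Called genes made up 56.8% of all genes tested in this comparison, with 28.7% higher and 28.1% lower, so 8 of 10 is to be read against a table in which most genes were called. The groups of libraries did not overlap for 9 of the 10, against 71.3% of all genes tested. At a fold change of at least 2 as well, 3 EMT genes were called, all of them higher (CDH2, SNAI2 and ZEB2), against 11.6% of all genes in either direction and 5.65% that were higher.

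**Figure D1:**
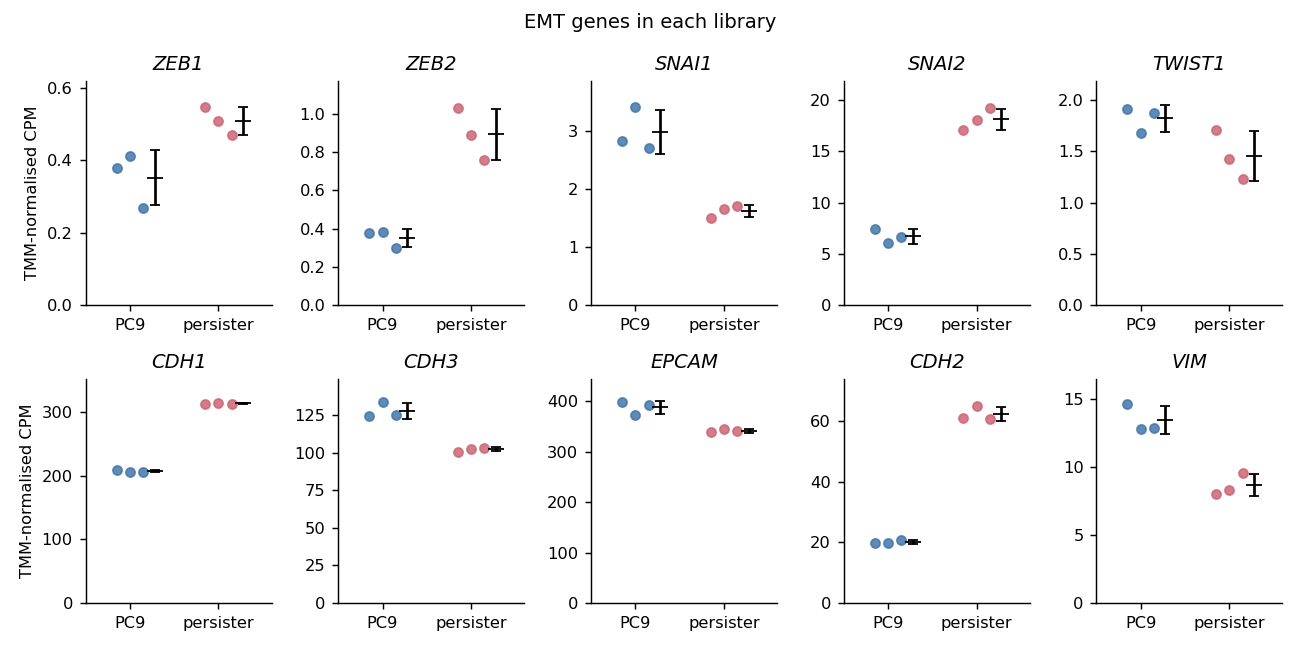
TMM-normalised CPM of each EMT gene in the 3 PC9 and 3 PS libraries (points), with the mean and SD of each group beside them in black; every vertical axis starts at 0. CDH2, SNAI2, ZEB2 and CDH1 stand higher in PS, SNAI1, VIM, CDH3 and EPCAM lower, and the groups overlap for TWIST1.

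Among the transcription factors, SNAI2 and SNAI1 moved in opposite directions. SNAI2 (ENSG00000019549, chromosome 8 of GRCh38, 48917598 to 48921740, minus strand) encodes SLUG, a zinc-finger repressor. Its level was 7.47, 6.05 and 6.62 CPM in PC9 replicates 1, 2 and 3, and 17.1, 18.0 and 19.2 CPM in the PS replicates. All PS libraries lay far above all PC9 libraries. The log2 fold change of SNAI2 was 1.43 (standard error, SE, 0.0861, adjusted p = 1.06e-07 in edgeR). SNAI1 (ENSG00000124216, chromosome 20, 49982980 to 49988886, plus strand) encodes SNAIL, its close relative and a short-lived protein in cells. SNAI1 had 2.82, 3.41 and 2.70 CPM in PC9, and 1.51, 1.65 and 1.70 CPM in PS. Each PS library was below each PC9 library, with a log2 fold change of -0.87 (SE 0.152, adjusted p = 0.000399 in edgeR). The log2 ratio of SNAI2 to SNAI1 within a library went from 1.18 ± 0.306 (SD, n = 3) in PC9 to 3.48 ± 0.0302 (SD, n = 3) in PS.

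The ZEB factors were the least abundant of the EMT genes. ZEB2 (ENSG00000169554, chromosome 2, 144364364 to 144521057, minus strand) had 13, 13 and 10 estimated counts in the PC9 libraries and 30, 28 and 26 in the PS libraries. In CPM these were 0.352 ± 0.0479 (SD, n = 3) and 0.893 ± 0.133 (SD, n = 3), and the groups did not overlap. The log2 fold change of ZEB2 was 1.32 (SE 0.266, adjusted p = 0.00108 in edgeR). At transcript level, 3, 6 and 7 counts in PC9 and 6, 10 and 11 in PS were assigned to ZEB2-227, a retained-intron transcript. ZEB1 (ENSG00000148516, chromosome 10, 31318495 to 31529814, plus strand) encodes a repressor tied to lipid remodelling and ferroptosis sensitivity in other tumour models. It had 13, 14 and 9 counts in PC9, and 16 in each PS library. The PS libraries lay just above the PC9 libraries, at 0.508 ± 0.0399 against 0.352 ± 0.0753 CPM (SD, n = 3 each). A log2 fold change of 0.52 (SE 0.296, adjusted p = 0.142 in edgeR) was not past the limit. With gene counts summed from annotated transcripts the value for ZEB1 was 0.14 (adjusted p = 0.770 in edgeR), and annotated ZEB1 transcripts then held 6 counts in PS replicate 2 against 16 in the gene table.

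TWIST1 (ENSG00000122691, chromosome 7, 19020991 to 19117636, minus strand), a basic helix-loop-helix factor of mesoderm development, was the one EMT gene whose groups overlapped. Its level was 1.92, 1.67 and 1.87 CPM in PC9, and 1.71, 1.43 and 1.23 CPM in PS. PS replicate 1 lay above PC9 replicate 2. With a log2 fold change of -0.33 (SE 0.179, adjusted p = 0.125 in edgeR) TWIST1 did not pass the test.

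Of the epithelial genes, CDH1 rose while CDH3 and EPCAM fell. CDH1 (ENSG00000039068, chromosome 16, 68737292 to 68835537, plus strand) had 209, 206 and 206 CPM in PC9, and 313, 315 and 313 CPM in PS. The spread within each group was small beside the gap between them. Its log2 fold change was 0.60 (SE 0.0321, adjusted p = 4.34e-08 in edgeR), a 1.52-fold rise. CDH3 (ENSG00000062038, chromosome 16, 68636189 to 68727468, plus strand) encodes P-cadherin, found mainly in basal epithelial layers. It lies on the same strand as CDH1, and its annotated span ends 9823 bases before CDH1 begins. That end is reached by the transcript CDH3-209, with 0.359% of the CDH3 counts in PC9. The leading transcripts, CDH3-203 and CDH3-202, end farther from CDH1, at 68698692 and 68699036. CDH3 had 124, 134 and 125 CPM in PC9, and 101, 103 and 103 CPM in PS, without overlap. The log2 fold change of CDH3 was -0.32 (SE 0.0411, adjusted p = 3.95e-05 in edgeR). The log2 ratio of CDH1 to CDH3 within a library therefore went from 0.695 ± 0.0680 to 1.62 ± 0.0195 (SD, n = 3 each) for these neighbouring genes.

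EPCAM (ENSG00000119888, chromosome 2, 47345158 to 47387601, plus strand) encodes an epithelial cell adhesion molecule that is widely used to identify carcinoma cells. EPCAM had 398, 373 and 392 CPM in PC9, and 338, 346 and 341 CPM in PS. The PS libraries lay below the PC9 libraries, by a smaller margin than for any other called EMT gene. Its log2 fold change was -0.18 (SE 0.0361, adjusted p = 0.000953 in edgeR).

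CDH2 changed the most of the 10 EMT genes. CDH2 (ENSG00000170558, chromosome 18, 27932879 to 28177946, minus strand) had 19.8, 19.7 and 20.7 CPM in PC9, and 61.0, 64.9 and 60.8 CPM in PS. Every PS library stood well above every PC9 library. The log2 fold change of CDH2 was 1.64 (SE 0.0492, adjusted p = 5.20e-10 in edgeR), a 3.11-fold rise. VIM (ENSG00000026025, chromosome 10, 17228241 to 17237593, plus strand), the intermediate filament of mesenchymal cells, went the other way. VIM had 14.7, 12.8 and 12.9 CPM in PC9, and 8.05, 8.36 and 9.60 CPM in PS. These groups did not overlap, and the log2 fold change of VIM was -0.63 (SE 0.0887, adjusted p = 8.11e-05 in edgeR). The usual pair of mesenchymal markers thus moved apart, with CDH2 higher and VIM lower in the same libraries.

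**Figure D2:**
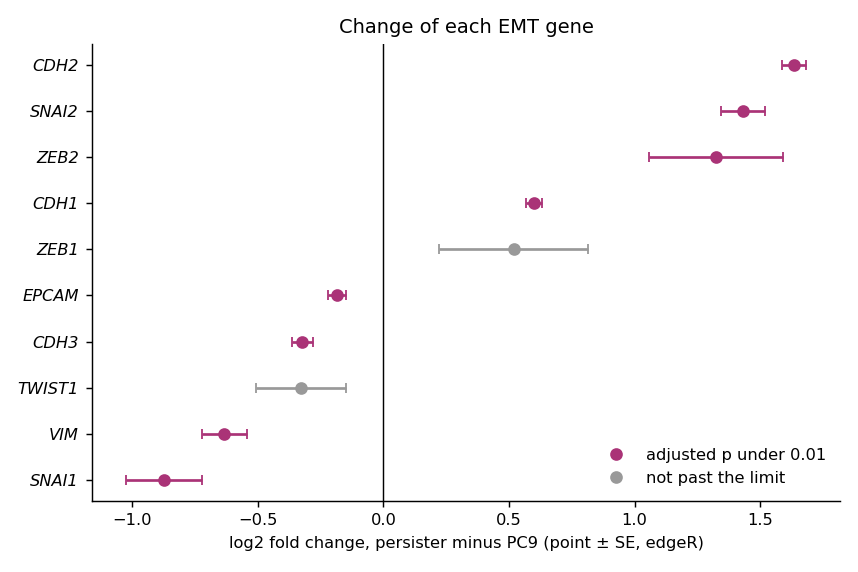
Log2 fold change of each EMT gene, PS minus PC9, with its standard error from edgeR (bars). Purple points passed an adjusted p under 0.01 and grey points did not; CDH2 (1.64) and SNAI1 (-0.87) are at the ends, and ZEB1 (0.52) has the widest bar.

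The annotation gives CDH2 several start sites, and the sequence is shown before those of its main transcripts, CDH2-201 and CDH2-202. The rise of CDH2 was called for the first and not for the second. A difference between them was not shown, since the test of transcript usage within CDH2 gave an unadjusted p of 0.808 (edgeR's diffSpliceDGE). A further transcript, CDH2-204, had 5 counts in PC9 replicate 3 and 0 in the other libraries. The sequences are the 250 bases before the RefSeq start on the minus strand of GRCh38.p14, at chr18:28177131-28177380 for the upstream start and at chr18:28036642-28036891 for the intronic start. Capitals mark matches on either strand to an E-box (CACCTG), letters known to be bound by the ZEB and SNAIL factors. Capitals also mark a TATA box (TATAAA) and the CCAAT box, named by its letters. A GC box (GGGCGG) and an AP-1 site (TGANTCA) are marked in the same way, and the matches shown did not overlap.
CDH2-201 start: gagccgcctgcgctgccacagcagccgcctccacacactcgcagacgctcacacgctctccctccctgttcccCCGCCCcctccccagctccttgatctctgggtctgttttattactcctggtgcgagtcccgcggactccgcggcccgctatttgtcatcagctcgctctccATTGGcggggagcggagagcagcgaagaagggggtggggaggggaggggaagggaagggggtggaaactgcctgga
CDH2-202 start: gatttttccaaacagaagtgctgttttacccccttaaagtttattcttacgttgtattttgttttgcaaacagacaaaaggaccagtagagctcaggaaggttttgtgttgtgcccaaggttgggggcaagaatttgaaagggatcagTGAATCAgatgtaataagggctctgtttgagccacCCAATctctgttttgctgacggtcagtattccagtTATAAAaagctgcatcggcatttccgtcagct
The first start coincides with that of CDH2-201, and the second lies 56 bases from that of CDH2-202. The upstream window held a GC box and a CCAAT box and had 66.0% G and C, with 17 CpG dinucleotides. The intronic window had 42.0% G and C, with 4 CpG dinucleotides. It held a TATA box 32 bases before the start, a CCAAT box 67 bases before it and an AP-1 match 102 bases before it. Neither window held the E-box CACCTG, which is present in 17.5% of the 35116 RefSeq windows of this length. A TATA box occurs in 10.7% of them, a CCAAT box in 32.0%, a GC box in 42.6% and an AP-1 match in 6.57%. A match describes the letters of a window and does not show a bound factor. Promoter entries were matched for 4 of the 10 genes, CDH2, VIM, ZEB1 and ZEB2, and SNAI1, SNAI2, TWIST1, CDH1, CDH3 and EPCAM had none.

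At the level of transcripts, the leading transcripts of CDH2, CDH1, SNAI2 and CDH3 were called, and those of the other called genes that could be tested were not. Of 66 transcripts of the 10 genes with a count, 22 passed the expression filter, and 3 rose and 1 fell, against 7.80% of all 54499 transcripts tested that were called. CDH2-201, which begins at the upstream start, had 579, 523 and 648 counts in PC9 and 1778, 1804 and 1751 counts in PS. Its log2 fold change was 1.69 (SE 0.108, adjusted p = 0.000370 in edgeR). CDH2-202, from the intronic start, had 101, 146 and 43 counts in PC9 and 3, 239 and 325 counts in PS. The PS libraries span the whole range of the PC9 libraries and beyond, and CDH2-202 was not called (log2 fold change 0.99, SE 1.22, adjusted p = 0.673 in edgeR). CDH2-201 held 85.5% ± 7.47 (SD, n = 3) of the CDH2 counts in PC9 and 90.8% ± 8.05 (SD, n = 3) in PS.

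CDH1-201, the full-length E-cadherin transcript, held 86.2% ± 3.10 of the CDH1 transcript counts in PC9 and 85.3% ± 2.03 in PS (SD, n = 3 each). Shares here are of the summed counts of a gene's annotated transcripts. For CDH1 that sum was below its count in the gene table in every library. CDH1-201 was called higher, with a log2 fold change of 0.54 (SE 0.0387, adjusted p = 0.000576 in edgeR). In CDH3, most counts were assigned to CDH3-203, annotated as subject to nonsense-mediated decay, and to the coding CDH3-202. CDH3-203 held 47.5% ± 3.50 in PC9 and 44.3% ± 1.90 in PS (SD, n = 3 each) and was called lower, with a log2 fold change of -0.44 (SE 0.0554, adjusted p = 0.00412 in edgeR). CDH3-202 held 38.2% ± 3.56 in PC9 and 37.5% ± 1.31 in PS (SD, n = 3 each) and did not pass, with a log2 fold change of -0.38 (SE 0.105, adjusted p = 0.0623 in edgeR). SNAI2-201, the main coding transcript of SNAI2, rose by a log2 fold change of 1.36 (SE 0.122, adjusted p = 0.00125 in edgeR). The single SNAI1 transcript, SNAI1-201, was not called (log2 fold change -0.90, adjusted p = 0.0346 in edgeR). VIM-201, with 97.0% of the VIM counts in PC9, also missed the limit (-0.64, adjusted p = 0.0174 in edgeR), as did EPCAM-201, with 74.5% of the EPCAM counts in PC9 (-0.17, adjusted p = 0.0158 in edgeR). TWIST1-201 (adjusted p = 0.499 in edgeR) and CDH3-206 (adjusted p = 0.773 in edgeR) were not called either, and no transcript of ZEB1 or ZEB2 passed the expression filter. For EPCAM, the retained-intron transcript EPCAM-206 held 20.7% ± 1.35 of the counts in PC9 and 20.7% ± 0.694 in PS (SD, n = 3 each). A test of transcript usage within CDH1, CDH2, CDH3, EPCAM and SNAI2 called 0 of them with edgeR's diffSpliceDGE, and 0 had an unadjusted p under 0.05, against 1.93% of all genes with usage called. Kallisto divides reads between overlapping transcripts, so these splits are less certain than gene totals. The number of called EMT transcripts was 2 without PC9 replicate 3, without PS replicate 2 or without PS replicate 3, in place of 4.

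**Figure D3:**
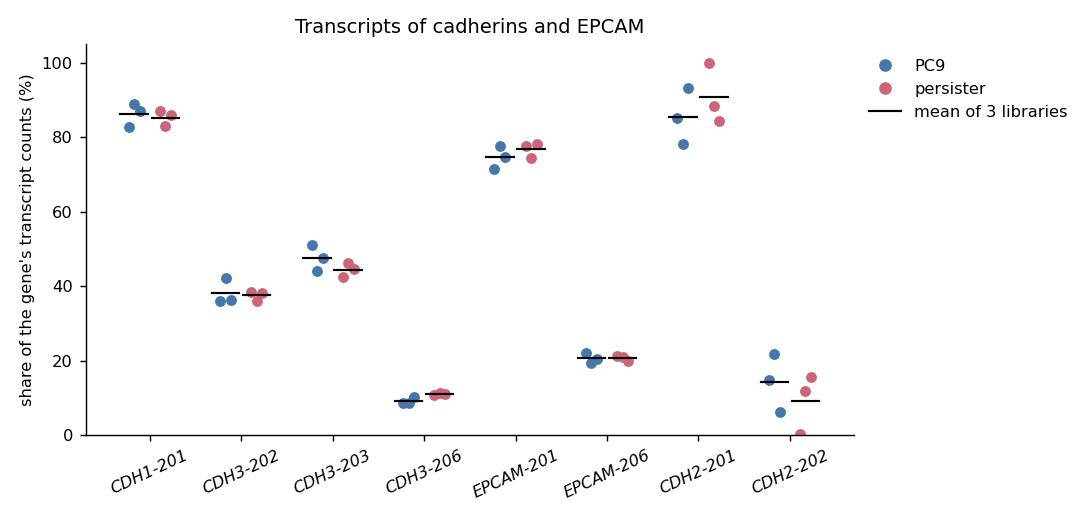
Share of a gene's transcript counts held by each leading transcript of CDH1, CDH3, EPCAM and CDH2, in percent, for the 3 PC9 and 3 PS libraries (points) with the mean (line). The groups overlap for most transcripts, and CDH2-202 ranges from 0.168% to 21.8%.

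To compare genes with one another, counts were divided by the length of each annotated transcript, giving CPM per kilobase. EPCAM led in PC9 with 310.2 ± 12.6, followed by CDH3 with 52.8 ± 1.85 and CDH1 with 47.4 ± 1.54 (CPM per kilobase, SD, n = 3). Further down were VIM at 7.54 ± 0.467, CDH2 at 5.17 ± 0.228, SNAI2 at 3.10 ± 0.317, SNAI1 at 1.77 ± 0.23 and TWIST1 at 1.21 ± 0.158. The ZEB genes came last, ZEB2 at 0.160 ± 0.0423 and ZEB1 at 0.142 ± 0.0162, and did not differ from each other beyond their spread. In PS, CDH1 stood above CDH3, at 70.1 ± 0.995 against 43.6 ± 0.453, and CDH2 and SNAI2 stood above VIM, at 15.5 ± 0.610, 8.19 ± 0.593 and 4.69 ± 0.378 CPM per kilobase. SNAI1 and TWIST1, at 0.946 ± 0.0597 and 0.891 ± 0.147, were not separable in PS. ZEB2 was at 0.300 ± 0.0252 in PS. ZEB1 was at 0.131 ± 0.0238 in PS, its libraries overlapping those of PC9. By this measure the mean of ZEB1 was not higher in PS, unlike its CPM in the gene table. The epithelial genes EPCAM, CDH1 and CDH3 held the first 3 places in both groups. These values take in transcripts of every annotated type. In CDH3 they include CDH3-203 (61.4 CPM in PC9, 2746 bases) and CDH3-206 (11.8 CPM, 892 bases), annotated as subject to nonsense-mediated decay. In EPCAM they include the retained-intron EPCAM-206 (81.4 CPM in PC9, 752 bases). The order therefore does not describe coding transcripts alone.

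Of the summed level of the 3 cadherins per kilobase, CDH2 took 4.78%, 4.77% and 5.16% in the PC9 libraries and 11.9%, 12.5% and 11.7% in the PS libraries. The share of CDH1 went from 45.0% ± 1.62 to 54.3% ± 0.207 and that of CDH3 from 50.1% ± 1.51 to 33.7% ± 0.225 (SD, n = 3 each). The groups did not overlap for any of the 3 shares. The share of CDH3 includes its transcripts annotated as subject to nonsense-mediated decay. For the share of CDH2 a two-sided exact permutation test gave p = 0.1, the smallest that 3 libraries against 3 can give. With 1 length per gene, that of its longest transcript with a count, CDH1 already stood above CDH3 in PC9, at 56.1% against 37.4%, so the order of these genes in PC9 depends on the length used. The share of CDH2 was then 6.50% in PC9 and 14.9% in PS. The shares of CDH1 and CDH2 were thus higher in PS, and that of CDH3 was lower.

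**Figure D4:**
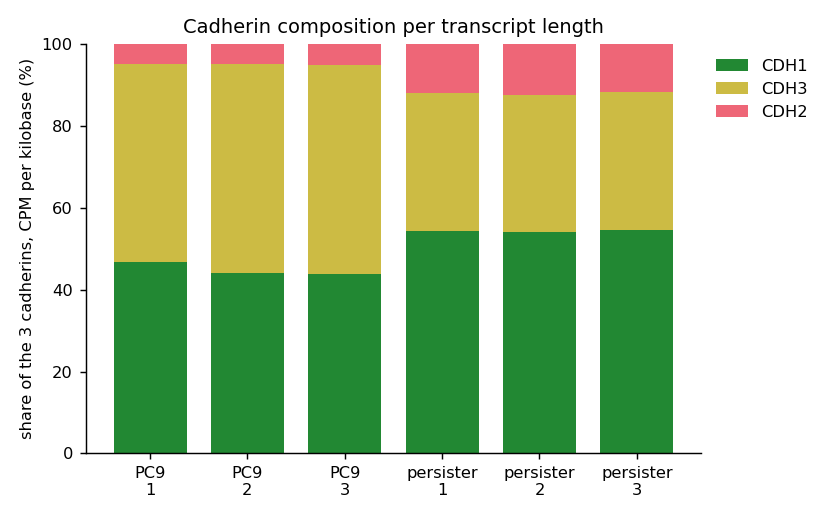
Share of CDH1, CDH3 and CDH2 in their summed level per kilobase, in percent, in each of the 6 libraries. The CDH2 segment is about 5% in PC9 and 11.7% to 12.5% in PS, and the CDH3 segment is smaller in all 3 PS libraries.

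Other genes of the pathway were counted in lists by role, which were drawn up with earlier results of these data known. Their counts are to be read against the 56.8% of all tested genes that were called, 28.7% higher and 28.1% lower. Among other transcription factors that promote EMT, 8 of 11 were tested, 4 fell and 0 rose, so that 50% were called, a share below that of all genes. The list had a median log2 fold change of -0.57, against -0.0061 over all genes tested. FOXQ1, a forkhead factor, fell from 70.0 ± 4.35 to 9.19 ± 0.859 CPM (SD, n = 3 each), with a log2 fold change of -2.92 (adjusted p = 1.44e-10 in edgeR). KLF8 and FOXC1 fell as well, with log2 fold changes of -0.75 and -0.59. Of the factors that maintain the epithelial state, 11 of 12 were tested, 4 fell and 2 rose, which is 54.5% called and close to the share of all genes. The ETS factors EHF (-1.45) and ELF3 (-0.91) and the pioneer factor FOXA1 (-0.85) had the smallest p-values among those that fell, and KLF4 (0.36) and OVOL2 (0.35) rose, given as log2 fold changes. The median log2 fold change of this list was -0.018.

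The partners of cadherins in the adherens junction moved by small amounts. All 11 were tested, 4 rose and 5 fell (81.8% called), with a median log2 fold change of -0.13. CTNND1, which encodes the p120 catenin that stabilises cadherins at the membrane, fell from 747 ± 14.7 to 548 ± 2.39 CPM (SD, n = 3 each), a log2 fold change of -0.45 (adjusted p = 4.48e-07 in edgeR). NECTIN4 (-0.70) and the α-catenin gene CTNNA1 (-0.25) fell too, while VCL (0.18), NECTIN3 (0.30) and AFDN (0.15) rose. Among the other catenins, CTNNB1 fell (-0.13), ARVCF, of the p120 family, rose (0.38), and JUP was not called (0.09), so the catenins did not move one way. Of 17 other cadherins only 5 passed the expression filter, of which 60% were called, with a median log2 fold change of -0.77. Among them CDH24 rose (0.55), and CDH10 (-1.84) and CDH26 (-1.13) fell, the latter pair from means of 1.41 and 0.881 CPM in PC9 to 0.401 and 0.403 CPM in PS.

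In the tight junction and desmosome list, 23 of 25 genes were tested, 8 rose and 10 fell (78.3% called), with a median log2 fold change of -0.021. CLDN1, a sealing claudin, rose from 99.6 ± 3.56 to 211 ± 2.42 CPM (SD, n = 3 each), a log2 fold change of 1.08 (adjusted p = 1.81e-09 in edgeR). TJP1 (0.51) and PKP1 (1.59) rose, and TJP3 (-1.38), PKP2 (-0.60) and MARVELD3 (-0.53) fell. TJP1 and TJP3 encode related scaffolds of the tight junction and went in opposite directions. Of 10 epithelial surface and trafficking genes, 3 rose and 2 fell (50% called). ST14 (0.37), LSR (0.32) and CDS1 (0.16) rose, and RAB25 (-0.62), a small GTPase of membrane trafficking, fell.

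The list of mesenchymal matrix, contractile and surface genes had the largest median, at a log2 fold change of 1.06. Of 37 genes 28 were tested, and 19 rose and 7 fell, which is 92.9% called against 56.8% of all genes. At least 2-fold changes were called higher for 14 and lower for 4 of them. FN1, the fibronectin gene, rose from 54.8 ± 1.68 to 430.4 ± 13 CPM, and TAGLN, which encodes the actin-binding protein transgelin, from 14.6 ± 0.228 to 115 ± 3.39 CPM (SD, n = 3 each). Their log2 fold changes were 2.97 and 2.99. NT5E (-2.20), S100A4 (-2.67) and TGFBI (-0.75) fell as VIM did. Of the TGF-beta pathway list, 13 of 14 genes were analysed, and 7 rose and 2 fell (69.2% called), with a median log2 fold change of 0.22. The ligand gene TGFB2 (1.31), the receptor gene TGFBR1 (1.61) and the inhibitory SMAD7 (1.45) rose, and SMAD3 (-0.26) and TGFBR2 (-0.19) fell. TGFB1, the host genes of miR-200c and miR-205, and the antisense genes of ZEB1, ZEB2 and VIM were not analysed here.

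**Figure D5:**
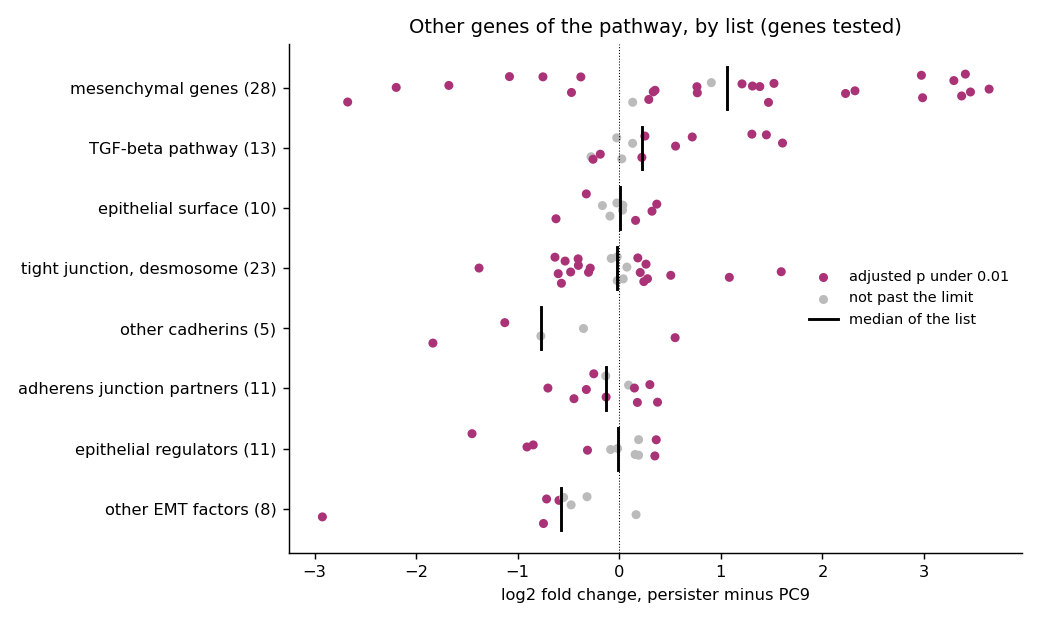
Log2 fold change, PS minus PC9, of the tested genes of each list (points, purple where the adjusted p was under 0.01), with the number tested in brackets and the median of the list as a black line; vertical scatter within a list is only for legibility. The mesenchymal list is spread widely around a median of 1.06, and the epithelial and junction lists centre near 0. The medians of the other cadherins and of the other EMT factors are lower, at -0.77 and -0.57.

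Over the 6 libraries, the tested genes whose log2 CPM was most like that of CDH1 were CEBPG, CORO1C and AIMP2, each with a Pearson r of 1.00. For VIM they were MCMDC2, C3orf67 and THYN1 (r = 0.996 each), and for ZEB1 they were SLC13A5 (0.993), CUTALP (0.990) and ZNF79 (0.985). These correlations share the step between the conditions, and 2861 of 14625 genes reached an r above 0.95 with CDH1, 1143 with VIM and 47 with ZEB1. CUTALP and ZNF79 were not called (adjusted p = 0.0165 and 0.0212 in edgeR), and ZEB1 itself had few counts.

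The labelled cell type was checked with marker genes. All 6 epithelial markers (KRT7, KRT8, KRT18, KRT19, CDH1 and EPCAM) were expressed, with a summed level of 7519 to 8051 CPM in PC9 and 5936 to 6298 CPM in PS. All 6 were called, against 56.8% of all genes tested, with 4 lower and 2 higher and a median log2 fold change of -0.49. CDH1 was among the higher, so the lower sum in PS does not hold for each marker. Of 5 lung lineage markers only SFTPB was tested, SFTPC and SCGB1A1 were at 0, and NKX2-1 had under 10 counts in all 6 libraries together. The list summed to 4.07 to 4.90 CPM in PC9 and 1.37 to 1.55 CPM in PS. Fibroblast markers summed to 10.4 to 11 CPM in PC9 and 27.4 to 30.8 CPM in PS, nearly all of it COL1A1, so the sum follows 1 gene. Of these 6, COL1A1 and PDGFRB were tested and rose, COL3A1 was at 0, and LUM had under 10 counts in all. Leukocyte markers summed to 74.7 to 76.5 CPM in PC9 and 19.6 to 22.6 CPM in PS, nearly all of it CD68, with CD3E at 0. Endothelial markers summed to 8.19 to 8.88 CPM in PC9 and 3.60 to 4.03 CPM in PS. The part of these markers in the results above was not tested.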

How the data were processed

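RNA of parental PC9 and PS cells (3 libraries each) was poly-A selected and sequenced. The authors trimmed reads with bases2fastq, filtered them with FASTP and pseudoaligned them with Kallisto 0.46.1 to Ensembl transcripts of GRCh38, and deposited estimated counts as whole numbers per gene symbol and per transcript, without normalization. Reads shared by similar transcripts are divided by Kallisto's model. Groups and replicate numbers came from the sample titles, and the dose and duration from the study's methods.

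The gene table was fitted with edgeR 4.0.16 in R 4.3.3 (filterByExpr, TMM, glmQLFit and glmQLFTest, no covariate), with Benjamini-Hochberg adjustment over all genes tested and a limit of 0.01. The standard error is the log2 fold change divided by the square root of F. Transcripts were tested likewise, and transcript usage with diffSpliceDGE. Coordinates and transcript lengths are from GENCODE 44 (GRCh38), which held 167067 of 188753 transcripts with 95.8% of transcript counts. Promoter sequences are RefSeq's (GRCh38.p14). The p-values measure the spread between the 3 libraries of each condition. In PS that is a spread between pools of cultures. For PC9 the study names no pooling, so the spreads of the groups are not of the same kind. The study's own analysis used Sleuth on libraries of 2 laboratories, and the other laboratory's libraries were not analysed here.

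The members and gene lists were chosen with earlier results of these data known. Named genes are the 10 members, up to 3 called genes per list and direction by smallest p, transcripts with at least 10% of a gene, and for CDH1, VIM and ZEB1 the 3 genes of highest Pearson r (log2 CPM, prior count 2). Other transcripts and genes outside this rule were named after their values were seen, and some genes of the lists are not reported here. The gene test was tested on simulated counts of 14626 genes, 200 of them changed, with a dispersion of 0.01. It recovered 88.5% of changes of 1 on the log2 scale, with 1.12% of calls wrong, and 38.0% of changes of 0.5. Over 54499 simulated transcripts it recovered 67.0% of changes of 1 and 8% of changes of 0.5, the latter with 5.88% of calls wrong. In the data 56.8% of genes were called, unlike this setting, so these rates are not those of the calls above. Results were recomputed with DESeq2 1.42.0, with voom in limma 3.58.1, with other normalizations, filters and limits, from counts summed over transcripts, with a replicate block and without each library in turn. Figures were drawn with matplotlib 3.10.9.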

Additional observations from a re-analysis of the deposited data

How the results depend on the processing

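All 10 EMT genes kept their direction and their side of the 0.01 limit in each alternative fit that could be run, 138 values in all. Levels per kilobase are not among these values. Other limits are not among them either and are given below as counts. With 1 library left out, the number of EMT genes called was 8 each time, and the log2 fold changes ranged from 1.61 to 1.66 for CDH2, 1.36 to 1.52 for SNAI2, 1.22 to 1.43 for ZEB2, 0.59 to 0.61 for CDH1, 0.36 to 0.64 for ZEB1, -0.94 to -0.77 for SNAI1, -0.72 to -0.57 for VIM, -0.34 to -0.29 for CDH3, -0.45 to -0.22 for TWIST1 and -0.21 to -0.16 for EPCAM. ZEB1 and ZEB2 did not reach 1 CPM in 3 libraries and had no value under that filter.

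A fold change of at least 2 as a further limit left 3 EMT genes called, 0 of them lower, and 1691 genes in all. It left 1 of the other EMT factors, 1 epithelial regulator, 0 adherens junction partners, 3 tight junction and desmosome genes, 0 epithelial surface genes and 3 TGF-beta pathway genes. At an adjusted p under 0.05, 7 of 8 tested other EMT factors and 5 of 5 tested other cadherins were called, beside 9931 of all 14626 genes tested. The number of called EMT transcripts, 4, went to between 2 and 3 with 1 library left out. The replicate block called 0 EMT transcripts, 8 EMT genes and 8671 genes in all. Replicate numbers were not used as pairs, because deviations of same-numbered libraries correlated at 0.124, 0.0236 and 0.0215, and not every library correlated best with its own number. With the longest transcript as gene length the share of CDH2 rose by 8.44 percentage points in place of 7.13. ZEB1 and ZEB2 had 9 to 30 counts per library, and the part of depth in the missing call of ZEB1 was not tested.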

Other observations

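Members of the mesenchymal list were also sorted by kind, a reading chosen after their values were seen. Of its actin-associated genes, CNN1 (log2 fold change 3.37), MYL9 (2.32), TPM1 (1.31), CALD1 (1.21) and TPM2 (0.33) rose with TAGLN, while ACTA2, the smooth muscle actin gene, fell from 4.36, 4.23 and 4.01 CPM in PC9 to 1.68, 2.54 and 1.73 CPM in PS (log2 fold change -1.08, adjusted p = 0.000122 in edgeR). Of its other matrix genes and matrix enzymes, COL5A1 (3.46), FBN1 (3.41), TNC (3.29), LOXL2 (2.23), SPARC (1.38), LOX (0.76) and COL6A1 (0.29) rose, TGFBI (-0.75) and MMP2 (-1.68) fell, and COL5A2 (0.13) was not called. COL1A1 had 345, 361 and 337 counts in PC9 and 768, 939 and 978 in PS, whereas COL1A2, the partner chain of type I collagen, had 2, 2 and 4 counts in PC9 and 0, 6 and 1 in PS. PECAM1, an adhesion molecule of endothelial cells, fell from 135, 154 and 157 counts in PC9 to 7, 9 and 4 in PS (log2 fold change -4.35, adjusted p = 4.52e-08 in edgeR).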
